A study of Homo sapiens with 21 samples.

Results

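REST, its CoREST corepressors and the enzymes they carry were followed as a group of 10 genes (REST, RCOR1, RCOR2, RCOR3, KDM1A, HDAC1, HDAC2, SIN3A, PHF21A and ZMYM2), chosen by symbol from the 60728 genes of the expression table. They were picked because RCOR1 was already seen to be low against Control in the libraries with low ARID1B, so their values against Control are given as a description without a test. The cells were SK-N-BE(2), a MYCN-amplified human neuroblastoma line, transduced with lentiviral shRNAs to take apart the BAF chromatin remodelling complex through its ARID1A and ARID1B subunits. RNA was collected 72 h after transduction and sequenced as stranded mRNA libraries. There were 7 conditions with 3 libraries each, described as biological triplicates: Control (a non-silencing control), shARID1A.2 and shARID1A.4 (ARID1A silencing), shARID1B.2 and shARID1B.3 (ARID1B silencing), and shARID1A/B.2.3 and shARID1A/B.4.2 (silencing of both). All libraries come from the same cell line at a single time, and p-values measure the spread between such triplicates.

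REST is a zinc finger repressor that binds the RE1 element and holds neuronal genes silent outside neurons. It recruits SIN3A through one end of the protein and CoREST (RCOR1) through the other. CoREST proteins join KDM1A (LSD1), the demethylase of mono- and dimethylated histone H3 lysine 4, to the class I deacetylases HDAC1 and HDAC2. PHF21A (BHC80) reads unmethylated H3K4 in the same complex, and ZMYM2 is a zinc finger partner of it. In cells of the neural lineage the level of REST falls as neurons mature.

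The levels of the 2 targeted genes went against each of the 3 labels. ARID1A measured 6097 to 6463 normalised reads (reads divided by the library's size factor) in Control and 2109 to 2289 in the libraries labelled shARID1A, where ARID1B was also low, at 2224 to 3126 against 5791 to 5804 in Control. In the libraries labelled shARID1B it was ARID1A that was low (1882 to 2507), while ARID1B stood at 4913 to 6182. In the libraries labelled shARID1A/B it was ARID1B that was low (1881 to 2651), and ARID1A stood at 5352 to 5752. Whether labels were exchanged between these groups was not tested, so a value given under a label may belong to another silencing than the label names. The labels are used below as written, beside the measured levels: ARID1B was low in the libraries labelled shARID1A and shARID1A/B and not in those labelled shARID1B. Totals ranged from 27954334 to 41077638 reads. All 8 adrenergic neuroblastoma markers on the list were present in every library (for example MYCN, at 77312 to 426870 normalised reads). Of the 12 markers of other cell types, KRT5 was at 0 in every library and CD3E, CDH1 and PECAM1 stayed below 9, while CDH5 reached 13.1, COL1A2 24.7, KDR 55.7, EPCAM 227, PTPRC 426, DCN 4785 and COL1A1 13319. In bulk RNA, fewer cells of a type and less RNA per cell cannot be told apart.

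In Control cells KDM1A was the most abundant of the 10 genes per length, at 1809 ± 19.3 normalised reads per kb of merged exons (SD, n = 3). HDAC2 followed at 824 ± 3.53, RCOR1 at 699 ± 24.6 and RCOR2 at 626 ± 15.3 per kb. HDAC1, ZMYM2, SIN3A and PHF21A came next with means of 434, 414, 315 and 285 per kb. REST itself (206 ± 5.96 per kb) and RCOR3 (190 ± 6.78 per kb) were the lowest. The 3 Control libraries of each gene did not overlap those of its neighbour in this order. The lengths add every annotated exon, so a gene with long unused exons is placed too low.

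RCOR1 (CoREST1, ENSG00000089902.10, chr14:102592661-102730576 in GRCh38, + strand) lay furthest below Control of the 10 genes in 3 of the 4 conditions with low ARID1B, and level with REST in the other, shARID1A.4. Control libraries measured 4162, 4389 and 4452 normalised reads. The libraries labelled shARID1A.2 measured 1367, 1436 and 1486 and those labelled shARID1A.4 1376, 1395 and 1449.9, 33% and 32.5% of the Control mean and with no overlap. The libraries labelled shARID1A/B.2.3 measured 1635, 1733 and 1778 and those labelled shARID1A/B.4.2 1372, 1464 and 1482. Thus all 12 libraries with low ARID1B lay between 1367 and 1778. In contrast, RCOR1 measured 3615, 3742 and 3747 in shARID1B.2 and 3619.7, 3739.8 and 3766 in shARID1B.3, the libraries in which ARID1A alone was low. These 6 values lay below all 3 Control values, but far above the other 12. As log2 differences from Control the 6 conditions stood at -1.60, -1.62, -0.23, -0.22, -1.34 and -1.59, in the order in which they were introduced, each with an SE of 0.038. The summed level of the 12 markers of other cell types, mostly COL1A1 and DCN, was also lower in these 12 libraries. It was 15214 to 15476 normalised reads in Control and 13032 to 18354 in the libraries labelled shARID1B, against 4327 to 7256 in those labelled shARID1A and 2609.8 to 9345 in those labelled shARID1A/B. Its part in the result was not tested.

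The 2 shRNA sets that share a label were compared next, since the choice of the genes did not use these differences. RCOR1 did not differ past the threshold between shARID1A.2 and shARID1A.4, with a log2 difference of 0.022 (SE 0.038, adjusted p = 0.599) and a 95% interval of -0.055 to 0.10. When libraries were scaled by total reads or by the upper quartile in place of size factors, this difference was 0.17 or 0.12 and passed. Between shARID1B.2 and shARID1B.3 it was -0.003 (SE 0.038, adjusted p = 0.954), with an interval of -0.081 to 0.075. RCOR1 was higher in shARID1A/B.2.3 than in shARID1A/B.4.2 by 0.25 (SE 0.038, adjusted p = 1.63e-06). ARID1B was also higher in that condition, at 2599 ± 55.5 against 1907 ± 41.3 normalised reads (SD, n = 3). Within the other labels, where RCOR1 did not pass with size factors, ARID1B also differed. It was lower in shARID1A.2 than in shARID1A.4, with a log2 difference of -0.47 (SE 0.023, adjusted p = 2.03e-15). Between shARID1B.2 and shARID1B.3 the ARID1B difference was -0.28 (SE 0.023, adjusted p = 6.49e-11). Whether RCOR1 follows the ARID1B level within a label was not tested. Adjusted p-values throughout are from limma over the 18584 genes tested, with a threshold of 0.05.

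RCOR2 (chr11:63911221-63916844), a CoREST paralog studied in neural progenitors, was below Control in all 6 conditions and followed another order. It measured 1664, 1736 and 1738 in Control. The lowest levels were in shARID1A.2 (684, 695 and 776) and shARID1B.3 (689.8, 749 and 906), followed by shARID1A/B.4.2 (952, 961 and 977), shARID1A.4 (961, 997 and 1019.9) and shARID1B.2 (992, 1057 and 1140). The nearest to Control was shARID1A/B.2.3 (1446, 1465 and 1543), which still lay below it. The log2 differences from Control ran from -1.25 to -0.21. With ARID1A alone low RCOR2 stood at -0.69 (SE 0.068) in shARID1B.2 and -1.14 (SE 0.068) in shARID1B.3. The value in shARID1B.3 lay between the -1.25 and -0.79 of the conditions with both genes low, and that in shARID1B.2 nearer to Control. Within labels, RCOR2 was lower in shARID1A.2 than in shARID1A.4, with a log2 difference of -0.47 (SE 0.068, adjusted p = 1.01e-06). It was higher in shARID1B.2 than in shARID1B.3 by 0.45 (SE 0.068, adjusted p = 2.33e-06), and higher in shARID1A/B.2.3 than in shARID1A/B.4.2 by 0.62 (SE 0.068, adjusted p = 9.54e-09).

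RCOR3 (chr1:211258377-211316385), the paralog described as a weaker activator of LSD1, stood above Control under one shRNA set of each label and below it under the other. Control libraries measured 1679, 1707 and 1797. RCOR3 was above them in shARID1A.2 (2570.3, 2618 and 2791), shARID1A/B.4.2 (2299.7, 2413 and 2452) and shARID1B.2 (2044, 2065 and 2109). It was below them in shARID1A.4 (1459, 1535 and 1582), shARID1B.3 (1545, 1549 and 1606) and shARID1A/B.2.3 (1509, 1562 and 1579.6). No condition overlapped Control. The falls were small, with log2 differences of -0.18 in shARID1A.4, -0.14 in shARID1B.3 and -0.16 in shARID1A/B.2.3. With upper-quartile scaling those in shARID1B.3 and shARID1A/B.2.3 were -0.081 and -0.082, and their calls were lost. The differences within labels were 0.80 (SE 0.037, adjusted p = 4.99e-16) for shARID1A.2 over shARID1A.4, 0.40 (SE 0.037, adjusted p = 5.78e-10) for shARID1B.2 over shARID1B.3 and -0.62 (SE 0.037, adjusted p = 9.29e-14) for shARID1A/B.2.3 over shARID1A/B.4.2.

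The make-up of the 3 CoREST transcripts differed between conditions. Summed per kb, they came to 1514.4 normalised reads per kb in Control, of which RCOR1 made up 46.1%, RCOR2 41.3% and RCOR3 12.5%. The sum was 785.4 in shARID1A.2 and 757.2 in shARID1A.4. In shARID1A.2 RCOR3 was the largest share (37.3%), ahead of RCOR2 (33.4%) and RCOR1 (29.3%), whereas in shARID1A.4 RCOR2 was the largest (47.9%). The libraries labelled shARID1A/B had sums of 989.4 in shARID1A/B.2.3 and 846.6 in shARID1A/B.4.2, and RCOR2 was the largest share in both, at 54.8% and 41.6%. In the libraries labelled shARID1B RCOR1 kept the largest share, at 49.2% (shARID1B.2) and 56.6% (shARID1B.3). These shares rest on the exon lengths used and describe transcripts, not protein.

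REST (chr4:56907876-56966678, + strand) was below Control in every condition. Control libraries measured 1589.9, 1664 and 1678. The lowest values were those of shARID1A.4 (488, 519.7 and 588), with 532 ± 50.9 against 1644 ± 47.6 normalised reads in Control (SD, n = 3). The libraries labelled shARID1A.2 (866, 882 and 921) and shARID1A/B.4.2 (841, 841 and 917) overlapped each other. The libraries labelled shARID1A/B.2.3 (1107, 1138 and 1146) and shARID1B.3 (1016, 1113 and 1192) also overlapped each other, and shARID1B.2 (1366, 1388 and 1410) came nearest to Control. As log2 differences from Control the lowest and highest conditions were -1.63 (SE 0.056) and -0.24 (SE 0.056). REST differed between the shRNA sets of every label. It was higher in shARID1A.2 than in shARID1A.4 by 0.74 (SE 0.056, adjusted p = 1.15e-11), higher in shARID1B.2 than in shARID1B.3 by 0.33 (SE 0.056, adjusted p = 1.56e-05), and higher in shARID1A/B.2.3 than in shARID1A/B.4.2 by 0.39 (SE 0.056, adjusted p = 1.33e-06). Counts per gene do not separate the full-length REST transcript from the neuronal splice form that encodes a truncated protein.

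KDM1A (LSD1, chr1:23019443-23083689) was the demethylase of the set and its level per length was the highest. It measured 9755, 9806 and 9957 in Control. It was lowest in shARID1A/B.4.2 (5918, 6103 and 6142) and shARID1A.2 (6635, 6798 and 6847). In shARID1B.2 (8569, 8570.4 and 8633), shARID1A.4 (8679.9, 8795 and 8969.9) and shARID1B.3 (8983, 9127 and 9249) it lay closer to Control, and shARID1A/B.2.3 (9437, 9724 and 9828) overlapped it. KDM1A was lower in shARID1A.2 than in shARID1A.4, with a log2 difference of -0.38 (SE 0.021, adjusted p = 2.52e-14), and higher in shARID1A/B.2.3 than in shARID1A/B.4.2, by 0.67 (SE 0.021, adjusted p = 2.98e-19). The difference between shARID1B.2 and shARID1B.3 was smaller, -0.086 (SE 0.021, adjusted p = 0.00102), and took the opposite sign (0.022) with total-read scaling.

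PHF21A (chr11:45929323-46121178), the reader of unmethylated H3K4, was the member that stood above Control most often. It measured 3131, 3201 and 3248 in Control and 4553, 4695 and 4811 in shARID1A.4. It also lay above Control in shARID1B.3 (4075, 4106 and 4359), shARID1A/B.2.3 (3919.6, 3933 and 4033), shARID1A.2 (3614, 3648 and 3699) and shARID1B.2 (3459, 3631 and 3645). Only in shARID1A/B.4.2 was it below, at 2559, 2572 and 2578. The differences within labels were -0.36 (SE 0.028, adjusted p = 2.13e-11) for shARID1A.2 over shARID1A.4, -0.22 (SE 0.028, adjusted p = 1.43e-07) for shARID1B.2 over shARID1B.3 and 0.62 (SE 0.028, adjusted p = 3.6e-16) for shARID1A/B.2.3 over shARID1A/B.4.2.

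ZMYM2 (chr13:19958670-20091829) varied within a narrow range, from 4592 to 4925 in shARID1A/B.4.2 to 5817 to 6116 in shARID1A.4, around 5554 to 5758 in Control. It was lower in shARID1A.2 than in shARID1A.4, with a log2 difference of -0.24 (adjusted p = 1.19e-08), and higher in shARID1A/B.2.3 than in shARID1A/B.4.2 by 0.28 (adjusted p = 1.08e-09). Between shARID1B.2 and shARID1B.3 it differed by -0.091 (adjusted p = 0.00395), a difference whose sign was turned by total-read scaling (0.017).

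The 2 deacetylases stayed near Control in every condition. HDAC1 (chr1:32292086-32333635) ran from 1705 to 1735 in Control and from 1441 to 1839 over the other 18 libraries. Its largest difference within a label was between shARID1A/B.2.3 and shARID1A/B.4.2, -0.26 (SE 0.039, adjusted p = 1.98e-06). Between shARID1A.2 and shARID1A.4 it was 0.10 (SE 0.039, adjusted p = 0.0231). That call was lost when shARID1A.2 replicate 2 (0.070), shARID1A.2 replicate 3 (0.081) or shARID1A.4 replicate 3 (0.077) was left out, and when only the libraries of the contrast were used. Between shARID1B.2 and shARID1B.3 it was -0.085 (SE 0.039, adjusted p = 0.0575), which did not pass, although it did with the replicate block (-0.085) and without shARID1B.2 replicate 2 (-0.11) or shARID1B.3 replicate 1 (-0.11). HDAC2 (chr6:113933028-114011308), the more abundant of the pair, measured 12676 to 12776 in Control and 11285 to 14189 elsewhere. It was lower in shARID1A.2 than in shARID1A.4, with a log2 difference of -0.23 (SE 0.019, adjusted p = 3.19e-11), and lower in shARID1B.2 than in shARID1B.3, with -0.23 (SE 0.019, adjusted p = 8.45e-11). It was higher in shARID1A/B.2.3 than in shARID1A/B.4.2 by 0.11 (SE 0.019, adjusted p = 8.58e-06), a difference that turned to -0.041 with total-read scaling. The 2 rows named as HDAC1 pseudogenes held 0.24% as many normalised reads as HDAC1.

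SIN3A (chr15:75369379-75455842), the scaffold of the second REST corepressor, was lowest in 2 conditions. It measured 3857, 3910 and 4006 in Control, 1813, 1836 and 1845 in shARID1A.4 and 1886, 1980 and 1981 in shARID1A/B.2.3. In the partner conditions shARID1A.2 (3844, 3859 and 3897) and shARID1A/B.4.2 (3044, 3112 and 3133) it was higher, and the first of these overlapped Control. The libraries labelled shARID1B.2 (3975, 4071 and 4113) also overlapped Control, and those labelled shARID1B.3 (3314, 3369 and 3384) lay below it. SIN3A had the largest difference within a label of the 10 genes, 1.08 (SE 0.025, adjusted p = 3.85e-22) for shARID1A.2 over shARID1A.4. It was lower in shARID1A/B.2.3 than in shARID1A/B.4.2, with a log2 difference of -0.67 (SE 0.025, adjusted p = 6.71e-18), and higher in shARID1B.2 than in shARID1B.3 by 0.27 (SE 0.025, adjusted p = 5.14e-10). Low SIN3A and low RCOR1 were thus found in the same libraries in shARID1A.4 and shARID1A/B.2.3 but not in shARID1A.2.

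Read library by library, the 3 values of a condition did not overlap the 3 Control values for 8, 10, 8, 9, 7 and 10 of the 10 genes, again in the order in which the conditions were introduced, where 77.7%, 75%, 69%, 66.6%, 71.1% and 73.9% of all genes tested did not overlap. Counted over the 10 genes, all of which passed the filter on low values, 7 were called between the libraries labelled shARID1A and Control, 8 for shARID1B and 7 for shARID1A/B. Over all 18584 genes tested, 75.1%, 64.4% and 68.6% were called in the same comparisons, so the counts of members are near the background, and since the members were chosen on these comparisons nothing is read from them. The calls use the spread between triplicates of a condition. When the 2 conditions of a label were instead treated as 1 group of 6 libraries, so that the spread between shRNA sets counted, the numbers called were 3, 2 and 2. The median absolute log2 difference of the members was 0.36, 0.12 and 0.26, against 0.44, 0.29 and 0.36 over all genes tested.

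Between the shRNA sets of a label, 9 of the 10 genes were called for shARID1A.2 against shARID1A.4, 8 for shARID1B.2 against shARID1B.3 and all 10 for shARID1A/B.2.3 against shARID1A/B.4.2. The background was 75.8%, 66% and 74.9% of the 18584 genes, so these counts too were not far from what all genes gave. With a log2 difference of at least 1 in size as well, SIN3A in the first pair was the only member called, against 23.9%, 13.7% and 22.3% of all genes. The median absolute differences within a label were 0.37, 0.23 and 0.50 for the members and 0.53, 0.38 and 0.51 for all genes.

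The first and the last of these pairs were mirror images for most of the members. Of the 10 genes, 8 had opposite signs in shARID1A.2 over shARID1A.4 and shARID1A/B.2.3 over shARID1A/B.4.2, and the exceptions were REST and RCOR1. The same held for 80.7% of all genes tested, and for 90.7% of the 11816 genes called in both pairs. For KDM1A, RCOR3, SIN3A and PHF21A, shARID1A.2 thus lay on the same side as shARID1A/B.4.2, and shARID1A.4 on the same side as shARID1A/B.2.3. These pairs share no library, but this pairing was noticed after the values were seen. If the numbers in the names stand for shRNAs, single and combined conditions share some of them. By the first number shARID1A/B.2.3 would then go with shARID1A.2, which is not the side these genes took. Whether the numbers name shared shRNAs was not tested. The members' signs in the shARID1B pair were opposite to those of the shARID1A pair for 3 of 10 (33.5% of all genes) and to those of the shARID1A/B pair for 7 of 10 (54.3% of all genes).

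REST acts at genes that carry RE1, so genes long known as REST targets, listed by hand for their RE1 elements, were read beside it. Of the 46 genes on the list 42 passed the filter. RefSeq promoter windows (GRCh38.p14, 250 bases before to 50 bases after a start) were at hand for 30 of the 46 genes, in 48 windows. They were searched on both strands for RE1 and for its left and right parts, TTCAGCACC and GGACAGC, which overlap RE1. RE1 was found in 2 of these 48 windows (4.17%), against 24 of 35116 windows of all genes (0.0683%), and the left part in 5 (10.4% against 0.376%). The right part, which is short and frequent, was found in 6 (12.5% against 6.03%) and is not shown. Since the genes were listed for known RE1 elements, an excess of these matches was set by that choice and is not read as a result. The 5 stretches with the left part, 2 of them a whole RE1, are shown because they tie these letters to named genes measured here, with the match in capitals and each written 5′ to 3′ on the strand that carries it.
SYN1: ccagctTCAGCACCGCGGACAGtgcctt
GRIA2: ggccttTCAGCACCGAGGACAGcgcctc
CELSR3: gctctgTTCAGCACCaggagcaacgctca
SCG3: aggaacTTCAGCACCcacagggcggacag
UNC13A: tcttggTTCAGCACCgggggcgcggacag
The SYN1 stretch (chrX:47620068-47620095, - strand gene) and the GRIA2 stretch (chr4:157220386-157220413, + strand gene, match on the opposite strand) hold RE1. The middle of the stretch lies 224 and 219 bases before the RefSeq start that its window was built on. The other 3 hold the left part, at chr3:48663012-48663040 (- strand gene, middle 140 bases before the start), chr15:51681505-51681533 (+ strand gene, middle 16 bases after it) and chr19:17688334-17688362 (- strand gene, opposite strand, middle 6 bases after it). The SCG3 and UNC13A stretches also end in ggacag, letters of the right part, at a greater distance from the left part than in RE1. Matches with such a wider gap were not searched for. In GENCODE, GRIA2 begins further upstream, at chr4:157204182, so its stretch lies inside that gene. A match of letters is not evidence of binding.

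SYN1, which encodes the synaptic vesicle protein synapsin I, rose in all 6 conditions. It measured 224 to 259.8 in Control and 868 to 912 in shARID1A.4, with no overlap. The log2 difference there was 1.92 (SE 0.066, adjusted p = 1.77e-18), and the other 5 conditions lay between 0.47 and 1.13. GRIA2, an AMPA receptor subunit, measured 303 to 365 in Control. It rose in 5 conditions, by 0.22 to 0.67, and stood at -0.026 (adjusted p = 0.784) in shARID1A/B.4.2. CELSR3, a cadherin receptor of axon guidance, rose in all 6, by 0.13 to 0.90. UNC13A, a vesicle priming factor, rose in 5 conditions, by 0.29 to 1.80, and fell in shARID1B.2, with -0.17 (adjusted p = 0.00033). SCG3, a granin of secretory granules, rose in shARID1A.4 (0.47), shARID1B.2 (0.20) and shARID1B.3 (0.66) and fell in shARID1A.2 (-0.50), shARID1A/B.2.3 (-0.27) and shARID1A/B.4.2 (-0.57). The 2 genes with RE1 thus rose or did not pass the test. Of the 3 with the left part but no whole RE1, CELSR3 rose throughout while UNC13A and SCG3 also fell in some conditions. Of all genes tested, 37.9%, 37%, 31.6%, 31.9%, 35.2% and 35.1% rose in the 6 conditions, in the order in which they were introduced, and 38.2%, 36.6%, 34%, 32%, 34% and 36.1% fell.

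Over the 42 tested REST target genes, 25 rose and 11 fell in the libraries labelled shARID1A, 20 rose and 16 fell in those labelled shARID1B, and 23 rose and 10 fell in those labelled shARID1A/B. Of all genes, 37.1%, 30% and 33.4% rose and 38%, 34.5% and 35.2% fell in these comparisons. The median log2 differences of the list were 0.32, 0.11 and 0.23, against 0.006, -0.010 and 0.007 over all genes. With the 2 conditions of a label treated as 1 group, 16 rose and 5 fell (shARID1A), 7 rose and 5 fell (shARID1B), and 12 rose and 1 fell (shARID1A/B). Among the 6 conditions the median of the list ran from 0.086 (shARID1B.3) to 0.47 (shARID1A.4). Total-read scaling moved the median of all genes by up to 0.187 in a condition, so the order of the conditions between these ends is not read.

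The 3 target genes with the largest mean change were RAB3A, BSN and NEFM. RAB3A, a vesicle GTPase, rose by 1.61, 0.69 and 1.42 in the libraries labelled shARID1A, shARID1B and shARID1A/B. BSN, a scaffold of the presynaptic active zone, rose by 1.53, 0.82 and 1.305. NEFM, a neurofilament subunit, measured 4371 to 4441 in Control and rose by 1.47, 0.82 and 1.18, but in shARID1B.2 its libraries (4307 to 4541) overlapped Control. These 9 differences all passed, with adjusted p from 1.7e-14 (RAB3A, shARID1B) down to 7.67e-26 (NEFM, shARID1A). With each label as 1 group, the call of NEFM under shARID1B was lost and the other 8 remained.

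The members' own promoter windows held no RE1 and no left part (0 of 16 windows of 9 genes, with none at hand for RCOR2). The right part, which is short and present in 6.03% of all windows, was found in 4 (25%), for REST, RCOR1, PHF21A and ZMYM2. The windows were rich in GC, with a median of 73.2% (39.3% to 82.7%) against 58.7% over all 35116 windows, and a median of 34.5 CpG against 14.

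Other subunits and partners were counted in the same way, in the order shARID1A, shARID1B and shARID1A/B, and are to be read against the 38%, 34.5% and 35.2% of all genes that fell and the 37.1%, 30% and 33.4% that rose. Differences under a label are means over its 2 conditions. Of 13 genes listed as partners or relatives of the LSD1-CoREST complex 5, 4 and 6 fell and 5, 6 and 6 rose. KDM1B (LSD2), listed as a relative of LSD1 and not as a CoREST subunit, fell under every label, with log2 differences of -1.77, -1.21 and -1.21 (adjusted p at most 6.61e-16). Its libraries measured 1114 to 1144 in Control and 179 to 220 in shARID1A.4. EHMT1, the H3K9 methyltransferase GLP, rose by 0.34, 0.21 and 0.39. With the 2 conditions of a label as 1 group, the calls of KDM1B remained and those of EHMT1 were lost under each label.

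Of 16 other subunits of the SIN3 complex 9, 5 and 11 fell and 5 rose under each label. RBBP4, a histone-binding subunit, had log2 differences of -0.80, -0.53 and -0.60 and fell under each label (its 6 pseudogene rows held 0.26% as many normalised reads). BRMS1L fell likewise (-0.47, -0.46 and -0.33), and ING1, a reader of methylated H3K4, fell under shARID1A (-0.57) and shARID1A/B (-0.52) but stood at 0.049 (adjusted p = 0.437) under shARID1B, where it rose in shARID1B.3 alone, by 0.19 (adjusted p = 0.00902). Among 17 subunits of the NuRD and NCoR complexes and related deacetylases 8, 5 and 9 fell and 5 rose under each label. NCOR1, a nuclear receptor corepressor, fell under each label (-0.61, -0.42 and -0.33). TBL1X, a subunit of the same complex, rose under shARID1A (0.58) and shARID1A/B (0.67), and went opposite ways under shARID1B, rising in shARID1B.2 by 0.25 (adjusted p = 7.06e-08) and falling in shARID1B.3, with -0.31 (adjusted p = 1.32e-09). With each label as 1 group, NCOR1 was no longer called under shARID1B and shARID1A/B, and the other calls given under a label for RBBP4, BRMS1L, ING1, NCOR1 and TBL1X remained.

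Of 11 SNAG-domain factors, which bind LSD1 through a short peptide that resembles the histone H3 tail, 6 passed the filter, and 3, 2 and 3 of them fell while 2 rose under each label. The 2 that rose were the neural repressors SCRT1 (1.48, 1.52 and 0.81) and SCRT2 (0.83, 0.74 and 0.55). The means under shARID1A/B hide a split. SCRT1 rose in shARID1A/B.2.3 by 1.82 and fell in shARID1A/B.4.2, with -0.20 (adjusted p = 0.00456). SCRT2 stood at 1.18 and -0.074 (adjusted p = 0.325) in the same conditions. Under shARID1A the rises were uneven too, with SCRT1 at 0.33 in shARID1A.2 and 2.62 in shARID1A.4, and SCRT2 at 0.36 and 1.29. SNAI2, a repressor linked to migration, fell under shARID1A (-1.26) and shARID1A/B (-1.15) and stood at 0.077 (adjusted p = 0.439) under shARID1B. Its falls were uneven within labels, at -1.85 in shARID1A.2 and -0.67 in shARID1A.4. In shARID1A/B.2.3 SNAI2 was at only -0.23 (adjusted p = 0.0409), and in shARID1A/B.4.2 at -2.07. Of 10 genes of REST turnover and splicing 4, 2 and 4 fell and 6, 5 and 5 rose. SRRM3, a splicing factor of neuronal microexons that also acts on the REST transcript, rose by 1.41, 0.84 and 0.94. BTRC, the ubiquitin ligase subunit that marks REST for degradation, had means of 0.43, 0.30 and 0.44. It rose in shARID1A.4 (0.92), shARID1A/B.2.3 (0.80) and both conditions labelled shARID1B, and did not pass in shARID1A.2 (-0.065) and shARID1A/B.4.2 (0.071). CTDSPL, a phosphatase of the family that works with REST, had means of 0.35, 0.12 and 0.35. It rose in shARID1A.2 (0.68), shARID1B.3 (0.41) and shARID1A/B.4.2 (0.82), fell in shARID1B.2 (-0.17) and shARID1A/B.2.3 (-0.12), and stood at 0.033 (adjusted p = 0.481) in shARID1A.4. With each label as 1 group, SRRM3 stayed called under all 3, SCRT2 under shARID1A and SNAI2 under shARID1A, and the other calls of SCRT1, SCRT2, SNAI2, BTRC and CTDSPL were lost.

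The 5 tested genes whose values were most like those of RCOR1 over the 21 libraries were ZFP36L1 (Pearson r = 0.989), HMGB3 (0.988), SF3B1 (0.986), MRPL19 (0.986) and PIGA (0.983). The libraries share their conditions, so these values describe a likeness and carry no test. ZFP36L1, an RNA-binding protein that promotes mRNA decay, had means of 1589 in Control, 557 in shARID1A.2 and 1598 in shARID1B.3. HMGB3, a chromatin protein, had means of 6431 in Control, 2232 in shARID1A.2 and 5376 in shARID1B.3. Among the members themselves REST was the most like RCOR1 (0.793), followed by KDM1A (0.583) and SIN3A (0.574), and 4.12% of the tested genes had a higher r with RCOR1 than REST did. RCOR2 (0.313) and RCOR3 (-0.294) were not close to their paralog.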

How the data were processed

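Expression was measured by RNA-Seq in 21 libraries of SK-N-BE(2) cells (TruSeq Stranded mRNA). Per the submitters' processing notes, STAR 2.5.3a, RSEM 1.3.0 and DESeq2 1.26.0 were used on GRCh38. The deposited table holds a signal per gene that the authors made by dividing read counts by a size factor for each library. The reads were recovered from it: 100% of values came out whole within 0.1 read, with size factors of 0.8409 to 1.2945, and the totals are these reads. For 2 libraries with a factor close to 1 low values cannot show the step. The 3 further tables hold the authors' own comparisons (mean level, log2 fold change, p-value and adjusted p) and were not used. Gene positions and exon lengths came from GENCODE 29 (58541 of 60728 IDs matched without version).

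Values were tested as log2(value + 1) with limma 3.58.1 (trend) under R 4.3.3, with the 7 conditions as a factor over all 21 libraries, after edgeR's (4.0.16) filterByExpr on the recovered reads. The 18584 genes kept were adjusted together (Benjamini-Hochberg), and a call is an adjusted p under 0.05. The values are not counts, so the count tests (edgeR, and DESeq2 1.42.0 on recovered reads) were alternatives. Fold changes on this scale understate those of low genes. The script was tested on simulated data with 200 changed genes. Figures were drawn with matplotlib 3.10.9. All replicate pairs differed by more than sampling noise (chi-square per degree of freedom 1.56 to 4.09 over 21 pairs). The members and the gene lists were chosen with earlier results of these data known. Genes named from a list are up to 3 with the largest mean log2 difference over the 6 conditions and a mean of at least 50, and some of them are not reported here. The 5 genes most like RCOR1 were taken by Pearson r, and the promoter search, the genes with a motif and the shares of the 3 CoREST transcripts were added after values were seen. Other alternatives were other scalings, pseudocounts (0.5, 5) and filters, fits on the compared libraries or on 4 labelled groups, a replicate block and leaving out each library.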

Additional observations from a re-analysis of the deposited data

Results flagged for a closer look

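Of the 30 differences of a member between the 2 shRNA sets of a label, 8 (in 5 genes) were flagged because every library of one condition lay above all Control libraries and every library of the other below them. RCOR3 was such a case under each label, with log2 differences of 0.80 (adjusted p = 4.99e-16) for shARID1A.2 over shARID1A.4, 0.40 (adjusted p = 5.78e-10) for shARID1B.2 over shARID1B.3 and -0.62 (adjusted p = 9.29e-14) for shARID1A/B.2.3 over shARID1A/B.4.2. HDAC2 was so under shARID1A, -0.23 (adjusted p = 3.19e-11), and under shARID1B, -0.23 (adjusted p = 8.45e-11). PHF21A, at 0.62 (adjusted p = 3.6e-16), and HDAC1, at -0.26 (adjusted p = 1.98e-06), were so under shARID1A/B. ZMYM2 was so under shARID1A, at -0.24 (adjusted p = 1.19e-08). The adjusted p-values are those of limma for the difference itself. In either direction, 66.6% to 77.7% of all genes tested did not overlap Control in a condition. The share of all genes that would be flagged in this way was not counted, so the 8 flags are not read as unusual. None of the 30 groups of 6 libraries with a label held a library far enough from the rest of its group to be flagged. Each group joins 2 conditions that often differ, so this check could hardly flag a library, and nothing is read from it.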

How the results depend on the processing

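The counts of members and of REST target genes called stayed within 1.5 times the reported count under the pseudocounts, filters, TMM, total-read and upper-quartile scaling, edgeR, DESeq2 and the fit on the compared libraries. They did not when each label was treated as 1 group of 6 libraries in a fit of 4 groups, by construction because the spread between shRNA sets then counts: members called were 3 (shARID1A), 2 (shARID1B) and 2 (shARID1A/B), and REST target genes that fell and rose were 5 and 16, 5 and 7, and 1 and 12. Leaving out each library in turn gave 7 to 7, 8 to 9 and 7 to 8 members for the labels in that order, and 8 to 9, 8 to 9 and 10 to 10 for the shRNA pairs. REST target genes that fell numbered 11 to 12, 15 to 16 and 8 to 11, and those that rose 25 to 25, 20 to 22 and 22 to 23.

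Total-read and upper-quartile scaling moved the median of all genes by up to 0.187 and 0.182 (log2), and the share of lower calls among all calls in shARID1A.2 against Control from 50.2% to 38.8% with total reads. Under them small differences from Control changed sign: HDAC2 (0.075 and 0.085), SIN3A (0.15 and 0.16) and ZMYM2 (0.011 and 0.021) in shARID1A.2, HDAC1 (0.11 and 0.090) and, with total reads alone, ZMYM2 (0.007) in shARID1B.2, HDAC2 (0.096 and 0.072) in shARID1A/B.4.2, and, with the upper quartile alone, KDM1A (0.048) in shARID1A/B.2.3. With total reads the signs of RCOR1 (0.10), KDM1A (0.022) and ZMYM2 (0.017) turned between shARID1B.2 and shARID1B.3, and that of HDAC2 (-0.041) between shARID1A/B.2.3 and shARID1A/B.4.2. SCG3 turned in the libraries labelled shARID1A (0.077 and 0.11), as did ARID1B in those labelled shARID1B (0.012 and 0.019). RCOR1 and REST kept their sign against Control under every alternative. In shARID1B.2, though, REST went from -0.24 to -0.108 with total reads and -0.125 with the upper quartile, and its call was lost.

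Replicate numbers did not pair the libraries (correlation of same-numbered deviations -0.088 to 0.053, none of 63 over 0.1, and 6 of 21 libraries closest to their own number). With the replicate block 9, 9 and 10 members were called between the shRNA sets of the 3 labels.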
